A study of Mus musculus with 8 samples.

Results

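The milk protein and alveolar genes followed here are Csn1s1, Csn1s2a, Csn2, Csn3, Wap, Lalba, Elf5, Glycam1, Btn1a1 and Xdh. These 10 genes were taken by name from the 51789 genes of the count table. All 10 were present as rows, 9 had at least 1 count in some library and passed the filter on low counts, and Wap had none. RNA came from whole abdominal mammary glands of female C57BL/6 mice, 6 weeks after a single injection into the gland of small extracellular vesicles (sEVs). The vesicles came from AT3 cells, a metastatic line of mouse mammary adenocarcinoma, grown in normoxia (sEVNORM, 3 libraries) or in hypoxia (sEVHYP, 2 libraries), or were prepared from medium that no cell had conditioned (sEVCTRL, 3 libraries). The mice carried no engineered allele according to the labels, and their age and stage of the estrous cycle are not given there. The comparisons ask whether vesicles of tumor cells, and those of hypoxic tumor cells in particular, leave a trace in the gland that receives them.

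The secretory cells of the mammary gland arise from luminal progenitors, which form alveoli in pregnancy. Prolactin binds its receptor on these cells, the kinase Jak2 phosphorylates Stat5, and Stat5 together with the glucocorticoid receptor and Elf5 drives the genes of milk proteins and of milk fat secretion. In a gland that is not pregnant or lactating these genes are largely silent, and the luminal progenitors hold low levels of some of them. A whole gland also holds adipocytes, myoepithelium, hormone-sensing luminal cells, vessels and a lymph node, so that in these bulk libraries fewer cells of a type and less RNA per cell cannot be told apart.

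Total counts were 18194996 to 21932810 for sEVCTRL, 20831117 to 24622569 for sEVNORM and 19165614 to 21809643 for sEVHYP. The unit of level is CPM, a gene's share of the counts of its library, scaled with edgeR's TMM factors. Markers of luminal epithelium such as Krt8 and Krt18 were present in every library, with a summed level of 372 to 669 CPM over 10 genes. Markers of skeletal muscle differed far more, and those of the lymph node also differed more. The summed level of 12 skeletal muscle genes was 720 to 8987 CPM for sEVCTRL, 11.3 to 3165 CPM for sEVNORM and 4868 to 13433 CPM for sEVHYP, and that of 12 lymph node genes was 1755 to 3483, 1895 to 4270 and 1374 to 2805 CPM in the same order. Skin epidermis genes summed to 68.3 CPM in the library sEVNORM 3 and to between 9.30 and 13.6 CPM in the other libraries. P values measure the spread between libraries, which the study counts as animals, although the labels do not tie a library to an animal.

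The 4 casein genes lie within 266 kb of chromosome 5 (chr5:87666208-87932665, GRCm38). Upstream sequence was available from RefSeq (GRCm38.p6) for 7 of the 10 genes, with a pair of alternative starts for Elf5. The palindrome TTCNNNGAA, which STAT factors bind (the interferon-gamma activated site, GAS), was searched on both strands in the 250 bases before each start. It was found once each for Csn1s1, Csn2 and Glycam1, and in 7.02% of all 32851 promoters. The match began 100 bases before the start for Csn1s1 (TTCTTAGAA, -100 to -92) and 93 bases before it for Csn2 (TTCTTGGAA, -93 to -85). The match for Glycam1 lay farther off (TTCCCAGAA, -145 to -137). No window of these genes held TATAAA, which 12.4% of all promoters held, or the palindromic glucocorticoid response element, which 0.387% held. The sequences below set a casein gene that was almost silent in these glands beside the most abundant of the 10 genes. They are read 5′ to 3′ on the strand of the gene, with the GAS in capitals. For Csn1s1 (chr5:87665958-87666207, plus strand) and Glycam1 (chr15:103565082-103565331, minus strand) they give the 250 bases before the start. For Csn2 they give 29 bases around the GAS (chr5:87699500-87699528, minus strand), which lie in the first exon of a longer Csn2 transcript in the GENCODE annotation.
Csn1s1: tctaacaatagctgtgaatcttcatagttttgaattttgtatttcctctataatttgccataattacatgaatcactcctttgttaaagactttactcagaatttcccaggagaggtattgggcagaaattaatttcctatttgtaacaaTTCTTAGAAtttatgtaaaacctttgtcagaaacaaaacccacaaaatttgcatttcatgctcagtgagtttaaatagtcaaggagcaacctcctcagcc
Csn2: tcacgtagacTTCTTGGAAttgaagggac
Glycam1: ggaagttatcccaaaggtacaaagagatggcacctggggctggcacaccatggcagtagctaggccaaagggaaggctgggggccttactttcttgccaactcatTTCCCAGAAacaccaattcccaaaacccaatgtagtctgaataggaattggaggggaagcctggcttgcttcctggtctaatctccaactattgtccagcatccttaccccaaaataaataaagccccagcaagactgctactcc
The sequences are a description. Binding of a factor was not measured in these libraries.

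The genes differed over several orders of magnitude in level. To compare genes, CPM was divided by the length of the principal transcript in kb. Glycam1 had the highest level, at 1253 ± 350 CPM per kb (SD, n = 8 libraries), followed by Csn3 at 96.0 ± 51.3, Xdh at 35.5 ± 10.1, Elf5 at 10.9 ± 5.80 and Btn1a1 at 5.13 ± 2.53. That order of the first 5 genes held within 8 of 8 libraries. Csn2 (0.991 ± 1.21 CPM per kb), Lalba (0.769 ± 0.388), Csn1s2a (0.654 ± 0.889) and Csn1s1 (0.644 ± 0.940) came next, and their levels did not differ beyond the spread between libraries. Csn3 thus stood 96.8-fold above Csn2, 147-fold above Csn1s2a and 149-fold above Csn1s1 in mean level per kb, although the 4 genes are neighbors. Wap had no count in any library.

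Casein genes encode the micelle proteins of milk. Csn1s1 (alpha-S1 casein, ENSMUSG00000070702, chr5:87666208-87682578, plus strand) had 0, 21 and 7 counts in the sEVCTRL libraries 1 to 3, 97, 2 and 34 in sEVNORM, and 5 and 2 in sEVHYP. Csn1s2a (alpha-S2 casein, ENSMUSG00000061937, chr5:87774567-87788797, plus strand) had 1, 12 and 8 counts in sEVCTRL, 64, 9 and 11 in sEVNORM, and 4 and 2 in sEVHYP. Csn2 (beta casein, ENSMUSG00000063157, chr5:87692624-87699630, minus strand) had 5, 23 and 4 counts in sEVCTRL, 124, 2 and 42 in sEVNORM, and 16 and 23 in sEVHYP. The library sEVNORM 1 held the highest count of all 3 genes, while sEVNORM 2, of the same group, held 2, 9 and 2 counts. For Csn1s2a both sEVHYP libraries lay below all sEVNORM libraries, and for the other 2 genes the groups overlapped.

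Csn3 (kappa casein, ENSMUSG00000001622, chr5:87925579-87932665, plus strand) encodes the casein that keeps the micelle soluble, and it was the only casein gene with a high count, at least 1618 in each library. Its levels were 82.1, 162 and 92.0 CPM in sEVCTRL, 345, 131 and 139 CPM in sEVNORM, and 139 and 136 CPM in sEVHYP. Apart from sEVNORM 1, all libraries lay between 82.1 and 162 CPM, and the groups overlapped in each comparison. Csn3 overlaps the antisense gene 1700066N21Rik, and whether strand was used in counting is not given in the sources used here, so that reads of this pair may not be separated.

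The whey proteins are the soluble part of milk. Wap (whey acidic protein, ENSMUSG00000000381, chr11:6635482-6638637, minus strand) had a count of 0 in all 8 libraries, which allows up to 3 counts per library, or 0.122 to 0.165 CPM, a limit that covers counting error only. Lalba (alpha-lactalbumin, the regulatory subunit of lactose synthase, ENSMUSG00000022991, chr15:98480400-98482721, minus strand) had 5, 8 and 13 counts in sEVCTRL, 21, 15 and 23 in sEVNORM, and 5 and 11 in sEVHYP. In CPM the sEVNORM libraries (0.664 to 1.09) lay above both sEVHYP libraries (0.229 and 0.588), while sEVCTRL (0.254 to 0.711) overlapped both groups. Glycam1 (a secreted mucin-like glycoprotein of milk and of the high endothelial venules of lymph nodes, ENSMUSG00000022491, chr15:103562759-103565081, minus strand) had 831, 630 and 782 CPM in sEVCTRL, 637, 1189 and 1018 CPM in sEVNORM, and 666 and 543 CPM in sEVHYP. Here the high libraries were sEVNORM 2 and sEVNORM 3, and sEVNORM 1 lay below sEVHYP 1.

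Btn1a1 and Xdh serve the secretion of milk fat: butyrophilin sits in the membrane around the fat globule and binds xanthine dehydrogenase, a purine-degrading enzyme that many other tissues also make. Btn1a1 (ENSMUSG00000000706, chr13:23456992-23465901, minus strand) had 12.3, 26.8 and 18.5 CPM in sEVCTRL, 33.4, 10.9 and 18.6 CPM in sEVNORM, and 9.11 and 11.0 CPM in sEVHYP. Both sEVHYP libraries lay below all sEVCTRL libraries, and sEVNORM 2 lay between them. Xdh (ENSMUSG00000024066, chr17:73883895-73950196, minus strand, overlapping the processed pseudogene CT025731.2) had 137, 182 and 198 CPM in sEVCTRL, 215, 87.0 and 205 CPM in sEVNORM, and 111 and 173 CPM in sEVHYP, with overlap in each comparison. Elf5, the ETS factor that directs alveolar differentiation (ENSMUSG00000027186, chr2:103411688-103450989, plus strand), had 12.6, 41.7 and 21.7 CPM in sEVCTRL, 55.6, 15.2 and 31.7 CPM in sEVNORM, and 17.8 and 25.2 CPM in sEVHYP. Its order of libraries began with sEVNORM 1 and sEVCTRL 2, as did that of Csn3, Csn1s2a and Btn1a1.

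**Figure D1:**
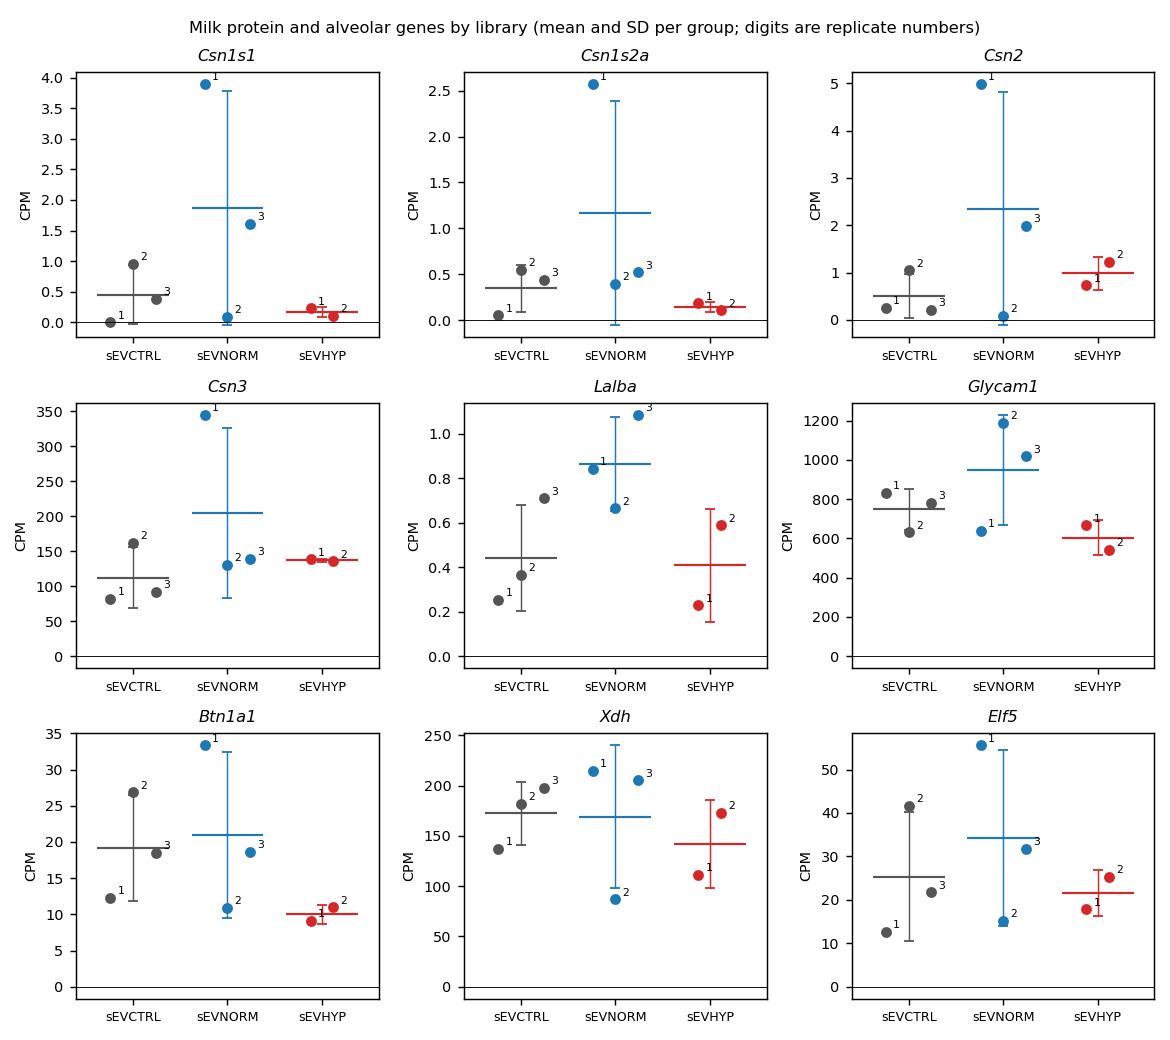
Level in CPM (linear axes) of the 9 genes with counts, with 1 point per library labelled by its replicate number, a line for the group mean and a bar for the SD (n = 3, 3 and 2). The library sEVNORM 1 is the highest of the 8 for 7 genes, whereas Glycam1 is highest in sEVNORM 2 and Lalba in sEVNORM 3.

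The library sEVNORM 1 was the highest of the 8 for 7 of the 9 tested genes, whereas it was the highest for 7.47% of all 17858 genes tested. The lowest value fell in sEVCTRL 1 for 4 genes, in sEVNORM 2 for 2 genes, in sEVHYP 1 for 2 genes and in sEVHYP 2 for 1 gene. The summed level of the 10 genes was 1045 to 1114 CPM for sEVCTRL, 1298 to 1434 CPM for sEVNORM and 890 to 944 CPM for sEVHYP, and Glycam1 made up 49.1% to 82.9% of it. That sum is therefore mostly a measure of Glycam1.

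The comparison of sEVHYP with sEVNORM asks whether hypoxia of the tumor cells changes what their vesicles leave behind. All 9 tested genes had a lower estimate in sEVHYP, with a median log2 fold change of -1.06, against -0.02 over all genes tested. None of them passed an adjusted P of 0.05, by edgeR (0% of all genes tested passed) or by DESeq2 on both groups alone (0.459% passed). At an unadjusted P of 0.05, the threshold the study used, 3 of the 9 were lower and 0 higher, against 3.95% of all genes tested in either direction and 1.7% in the lower direction. These were Csn1s2a with a log2 fold change of -2.95 (SE 1.17, unadjusted P = 0.0321 and adjusted P = 1.00 by edgeR), Btn1a1 with -1.06 (SE 0.47, unadjusted P = 0.0486 and adjusted P = 1.00 by edgeR) and Glycam1 with -0.65 (SE 0.28, unadjusted P = 0.0434 and adjusted P = 1.00 by edgeR). The estimates of the others were -3.41 for Csn1s1, -1.27 for Csn2, -1.09 for Lalba, -0.67 for Elf5, -0.58 for Csn3 and -0.25 for Xdh. Outside sEVNORM, Csn1s1 and Csn1s2a reached 10 counts only in sEVCTRL 2 (21 and 12). They passed the filter on low counts through the high sEVNORM libraries, so their estimates here are not independent of that filter. Both enter the counts of genes and the median given for this comparison. DESeq2 on both groups alone gave 4 at an unadjusted P of 0.05, the same 3 and Csn1s1, against 6.56% of all genes tested. The groups did not overlap for 2 of the 9 genes, Csn1s2a and Lalba, both lower, against 10.5% of all genes tested in the lower and 22.8% in either direction.

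The lower estimates leaned on single libraries. Without sEVNORM 1, the log2 fold change of Csn1s2a was -1.61 (unadjusted P = 0.164 by edgeR), that of Btn1a1 was -0.56 (unadjusted P = 0.200 by edgeR) and that of Csn3 turned to 0.02, while that of Glycam1 was -0.87 (unadjusted P = 0.00670 by edgeR) and the median was -0.56. Without sEVNORM 2, Glycam1 was at -0.45 (unadjusted P = 0.138 by edgeR) and 4 other genes (Csn1s1, Csn1s2a, Csn2 and Btn1a1) had an unadjusted P under 0.05, against 2.86% of all genes tested in that fit. With sEVHYP 1 left out 8 of the 9 genes had a lower estimate, and with sEVHYP 2 left out all 9 did. These fits hold a single sEVHYP library, so calls from them are not given.

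For sEVHYP against sEVCTRL, 7 of the 9 genes had a lower and 2 a higher estimate (Csn2 with 0.91 and Csn3 with 0.29), and the median log2 fold change was -0.28, against -0.02 over all genes tested. That median was -0.0060 without sEVHYP 1 and -0.63 without sEVHYP 2. None had an adjusted P under 0.05 (0% of genes tested) or an unadjusted P under 0.05 by edgeR (2.45% of genes tested). DESeq2 on both groups alone gave 0 at an adjusted P (0.0785% of genes tested) and 1, Btn1a1, at an unadjusted P (2.06%). Btn1a1 was also the 1 gene whose groups did not overlap, in the lower direction, against 6.08% of all genes tested in that and 12.8% in either direction. Its log2 fold change was -0.94 (SE 0.47, unadjusted P = 0.0749 and adjusted P = 1.00 by edgeR). The approximate 95% interval of the log2 fold change was wide, from -0.69 to 1.27 for Csn3 and from -1.52 to 1.05 for Elf5.

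For sEVNORM against sEVCTRL, 8 of the 9 genes had a higher estimate and Xdh had -0.03, with a median log2 fold change of 0.87 against 0.00 over all genes tested. None had an adjusted P under 0.05 (0% of genes tested) or an unadjusted P under 0.05 by edgeR (1.62% of genes tested). DESeq2 on both groups alone gave 0 at an adjusted P (0.0168% of genes tested) and 2, Csn2 and Csn3, at an unadjusted P (1.44%). The groups overlapped for all 9 genes, whereas they did not for 4.85% of all genes tested. The estimates nearest the threshold were those of Csn3, at 0.87 (SE 0.39, unadjusted P = 0.0536 by edgeR), and of Csn2, at 2.18 (SE 1.07, unadjusted P = 0.0713 by edgeR). Without sEVNORM 1 they were 0.27 and 1.00, with a median over the 9 genes of 0.40, and without sEVNORM 2 they were 1.11 and 2.74. The sEVNORM group held the library with the highest level of each casein gene and, for Csn2, also the library with the lowest. This comparison and the preceding ones share libraries, so that a high sEVNORM group appears in 2 of the 3. Csn1s1 and Csn1s2a passed the filter on low counts through libraries of that group.

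**Figure D2:**
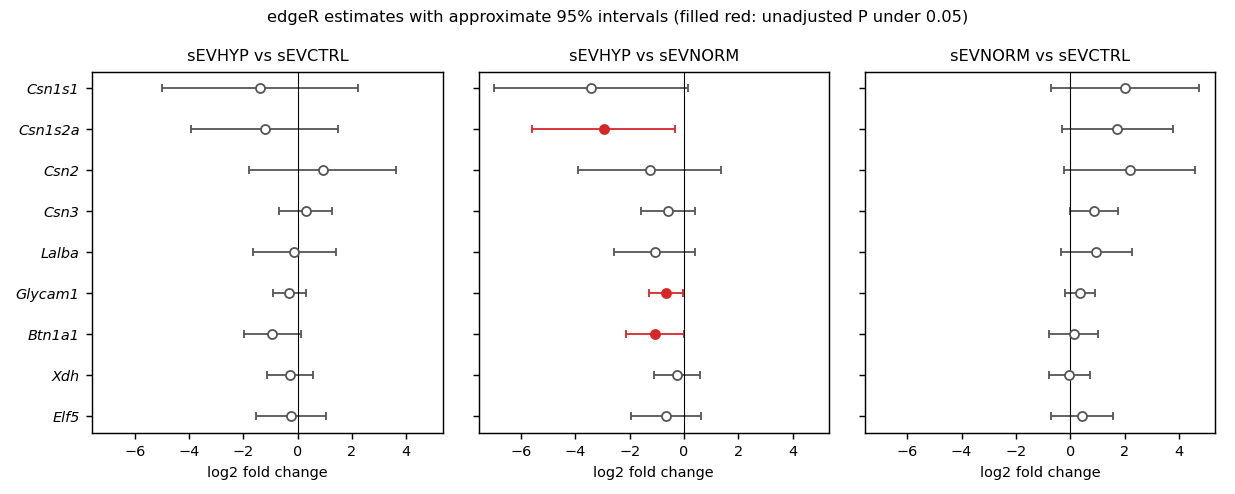
Log2 fold change of the 9 tested genes in the 3 comparisons by edgeR, with approximate 95% intervals, where red filled points mark an unadjusted P under 0.05. All 9 estimates are below 0 for sEVHYP against sEVNORM, from -3.41 for Csn1s1 to -0.25 for Xdh, and intervals are widest for the casein genes of few counts.

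Every pair of the 4 casein genes had a positive correlation across libraries. Correlations are Pearson's r of log2 CPM over the 8 libraries, given as a description, since the libraries share groups and tissue composition. Among casein genes r ran from 0.57 (Spearman's rho = 0.48) for Csn1s2a with Csn2 to 0.90 (rho = 0.90) for Csn1s1 with Csn1s2a. Csn1s1 followed Elf5 (r = 0.92, rho = 0.90), and the mean of the 5 tested milk protein genes followed Elf5 (r = 0.93, rho = 0.95). Lalba, which is part of that mean, had an r of 0.62 with it (rho = 0.69). Glycam1 had an r of -0.21 (rho = -0.33) with it. Outside the 10 genes, those most like the mean of the milk protein genes were Lcn2 (r = 0.985), Tmem231 (r = 0.964), Cd14 (r = 0.963), Kcnd2 (r = 0.954) and Hey1 (r = 0.945), among all genes tested. Lcn2, Cd14 and Hey1 are on the list of 10 luminal progenitor and alveolar markers, and sEVNORM 1 had the highest level of each, at 96.8, 43.0 and 26.1 CPM.

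The luminal progenitor and alveolar marker list had a summed level of 290 to 400 CPM in sEVCTRL, 319 to 529 CPM in sEVNORM and 293 to 317 CPM in sEVHYP, the highest being that of sEVNORM 1. Mfge8 alone, which the list shares with that of other milk and secretory genes, had 117 to 185 CPM. The mean log2 CPM of the progenitor and alveolar marker list had an r of 0.91 (rho = 0.88) with the milk protein mean, against 0.67 (rho = 0.62) for the luminal epithelium list. For sEVHYP against sEVNORM, 7 of its 10 genes had a lower estimate and 0 passed an unadjusted P of 0.05, with a median log2 fold change of -0.39. The estimates nearest the threshold were those of Hey1, a Notch target (-0.67, unadjusted P = 0.0521 by edgeR), and Kit, the receptor that marks luminal progenitors (-0.67, unadjusted P = 0.0608 by edgeR). For the luminal epithelium list the median in that comparison was 0.01, with 5 of 10 genes higher and 0 passing. Kit was among the 5 genes most like Btn1a1 (r = 0.950). With the luminal epithelium level as a covariate, Csn1s1, Csn1s2a and Btn1a1 had an unadjusted P under 0.05 for sEVHYP against sEVNORM and Glycam1 did not (unadjusted P = 0.0504 by edgeR), against 4.56% of all genes tested in that fit.

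**Figure D3:**
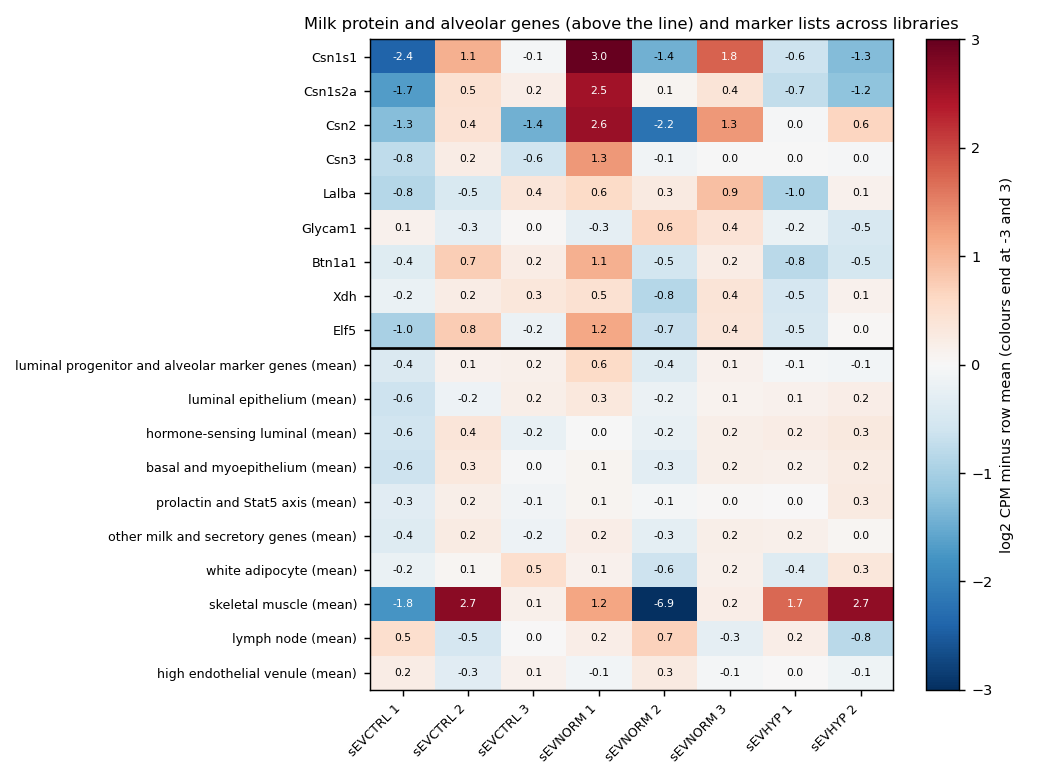
Log2 CPM minus the row mean (color scale ending at -3 and 3, value printed in each cell) for the 9 genes with counts and for the mean of each marker list, in the 8 libraries. The casein genes and Elf5 are highest in sEVNORM 1, as are the luminal progenitor and luminal epithelium lists, while Glycam1 is highest in sEVNORM 2, the library with the least skeletal muscle RNA and the most lymph node RNA.

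Glycam1 had a positive correlation with markers of the lymph node and a stronger negative one with skeletal muscle markers. Its r was 0.61 (rho = 0.69) with the mean of 12 lymph node genes, 0.66 (rho = 0.83) with that of 7 high endothelial venule genes and -0.86 (rho = -0.88) with that of 12 skeletal muscle genes. Some libraries departed from the lymph node pattern. Glycam1 was at 1018 CPM in sEVNORM 3, where the lymph node sum was 1895 CPM. It was at 637 CPM in sEVNORM 1 and 666 CPM in sEVHYP 1, with lymph node sums of 3007 and 2805 CPM. The gene most like Glycam1 was Ighv11-2, an immunoglobulin heavy chain segment (r = 0.976). For sEVHYP against sEVNORM, all 12 lymph node genes (such as the B cell attractant Cxcl13, log2 fold change -0.59) and 6 of 7 high endothelial venule genes had a lower estimate, and 0 of either list passed an unadjusted P of 0.05. With the lymph node level as a covariate the log2 fold change of Glycam1 was -0.50 (unadjusted P = 0.0853 by edgeR), and with the skeletal muscle level it was -0.29 (unadjusted P = 0.274 by edgeR). Skeletal muscle markers were higher in both sEVHYP than in all sEVNORM libraries for 10 of 12 genes. Of all genes tested, 22.8% did not overlap in either direction. The 12 genes mark 1 tissue, and their sum was 11.3 CPM in sEVNORM 2. With their level as a covariate, 7 of the 9 milk and alveolar genes had an unadjusted P under 0.05 by edgeR for sEVHYP against sEVNORM. All 7 were lower, without Glycam1 and Lalba, against 4.48% of all genes tested in that fit. Xdh had an r of 0.90 (rho = 0.71) with the white adipocyte list, of 0.985 with Rarres2, which encodes the adipokine chemerin, and of 0.65 (rho = 0.90) with the milk protein mean. The part of tissue composition in these differences was not tested beyond these covariates.

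**Figure D4:**
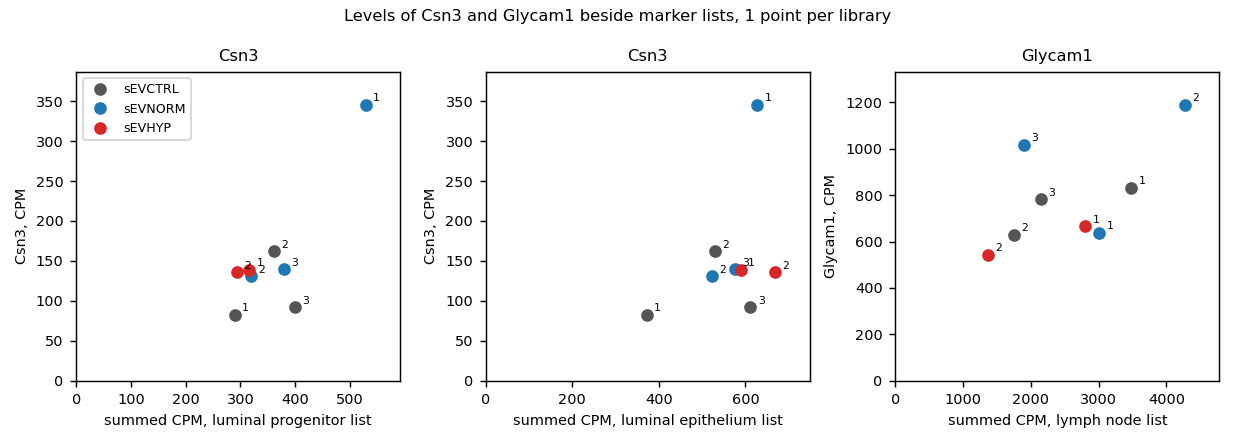
Level of Csn3 against the summed CPM of the luminal progenitor list and of the luminal epithelium list, and of Glycam1 against that of the lymph node list (linear axes from 0, 1 point per library, digits are replicate numbers). The Csn3 level of 345 CPM in sEVNORM 1 goes with the highest progenitor sum, 529 CPM, of which Mfge8 made up 185 CPM. The highest luminal sum is that of sEVHYP 2, 669 CPM, whereas the mean log2 CPM of that list is highest in sEVNORM 1 (4.97 against 4.83).

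The prolactin and Stat5 axis was examined as the known control of these genes. Of its 20 genes, all tested, 2 were higher at an unadjusted P of 0.05 for sEVHYP against sEVCTRL (2.45% of all genes tested passed in either direction). For sEVHYP against sEVNORM 1 was higher and 1 lower (3.95%), and for sEVNORM against sEVCTRL 0 passed (1.62%). None passed an adjusted P of 0.05 by edgeR. The receptor Prlr had 486 to 1145 CPM in sEVCTRL, 718 to 970 CPM in sEVNORM and 830 and 1228 CPM in sEVHYP. Stat5a, at 57.3 ± 6.69 (SD, n = 3), 52.5 ± 6.51 (n = 3) and 61.2 ± 22.9 CPM (n = 2), overlapped between groups as well.

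Cish, a suppressor of cytokine signaling that Stat5 itself induces, stood out in sEVHYP. It had 3.05, 5.56 and 5.74 CPM in sEVCTRL, 5.95, 3.41 and 5.81 CPM in sEVNORM, and 13.7 and 11.4 CPM in sEVHYP. Both sEVHYP libraries lay above all others. Of all genes tested, 12.8% did not overlap in either direction between sEVHYP and sEVCTRL, and 22.8% between sEVHYP and sEVNORM. The log2 fold change was 1.39 (SE 0.34, unadjusted P = 0.00287 and adjusted P = 1.00 by edgeR) against sEVCTRL and 1.31 (SE 0.34, unadjusted P = 0.00402 and adjusted P = 1.00 by edgeR) against sEVNORM. The unadjusted P stayed under 0.05 with any sEVCTRL or sEVNORM library left out. Fits without a sEVHYP library hold a single library of that group and are not counted here. The skeletal muscle sum was 4868 and 13433 CPM in these sEVHYP libraries and 8987 CPM in sEVCTRL 2, and its part in the Cish difference was not tested. Its relative Socs2 had 62.4 to 88.4 CPM in sEVCTRL, 57.2 to 110 CPM in sEVNORM and 103 and 117 CPM in sEVHYP, a log2 fold change of 0.61 against sEVCTRL (SE 0.27, unadjusted P = 0.0486 by edgeR). That of Socs2 lost its call with some of the sEVCTRL or sEVNORM libraries left out. Tnfsf11 (RANKL), the paracrine signal that hormone-sensing cells send to alveolar progenitors, had 8.68, 9.30 and 10.9 CPM in sEVCTRL, 10.1 to 15.0 CPM in sEVNORM and 8.24 and 5.40 CPM in sEVHYP. The lymph node sum was 1755 to 3483 CPM in sEVCTRL, 1895 to 4270 CPM in sEVNORM, and 2805 and 1374 CPM in sEVHYP. Its part in the level of Tnfsf11 was not tested. For Tnfsf11 both sEVHYP libraries lay below the other 6. Of all genes tested, 6.08% lay lower without overlap against sEVCTRL and 10.5% against sEVNORM. Against sEVNORM the log2 fold change was -0.94 (SE 0.27, unadjusted P = 0.00736 by edgeR), and without sEVHYP 2 the unadjusted P was 0.0754.

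**Figure D5:**
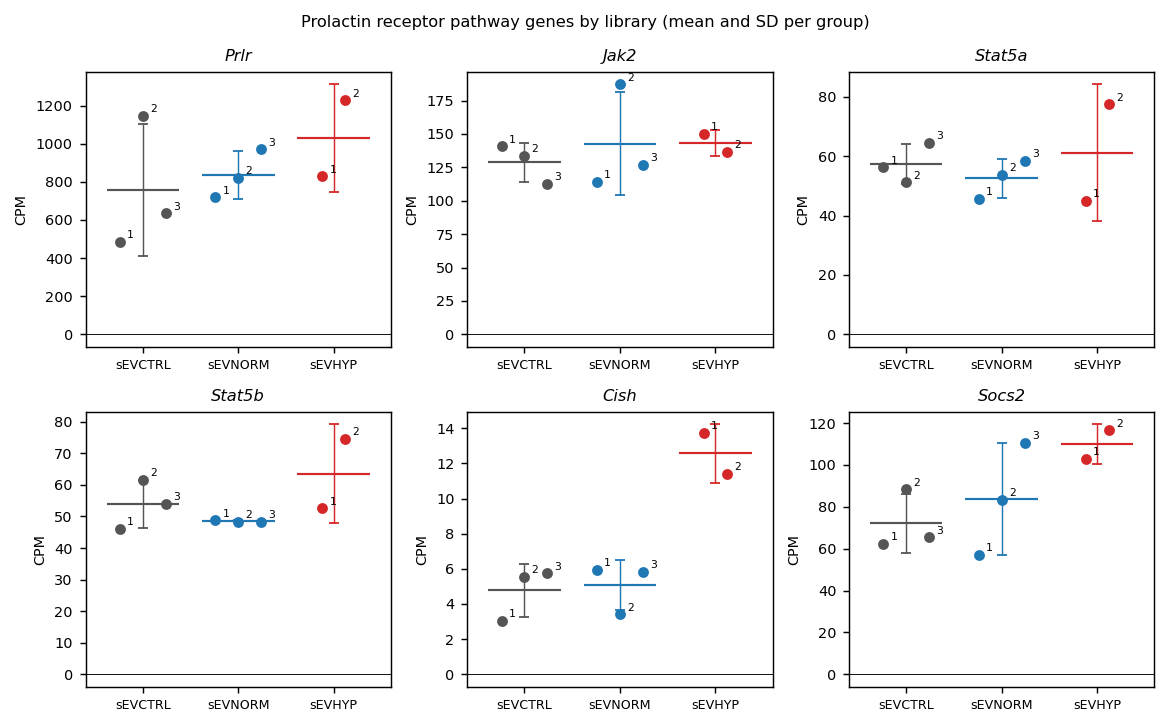
Level in CPM (linear axes) of 6 genes of the prolactin receptor pathway, with 1 point per library labelled by its replicate number, a line for the group mean and a bar for the SD (n = 3, 3 and 2). Cish lies at 13.7 and 11.4 CPM in sEVHYP and at 3.05 to 5.95 CPM in the other libraries, and each of the other 5 genes overlaps between sEVHYP and at least 1 of the other groups.

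A further list held 24 other genes of milk and secretion, of which 19 were tested. Across the 8 libraries its mean log2 CPM had an r of 0.75 (rho = 0.83) with the milk protein mean. For sEVHYP against sEVNORM 11 had a higher and 8 a lower estimate, with a median log2 fold change of 0.14 and 0 at an unadjusted P of 0.05. The count was also 0 for sEVHYP against sEVCTRL. For sEVNORM against sEVCTRL it was 1, Tph1, which makes serotonin, with 18.4 to 26.4 CPM in sEVCTRL and 21.1, 91.1 and 35.9 CPM in sEVNORM (log2 fold change 1.19, SE 0.45, unadjusted P = 0.0271 by edgeR). It lost that call without sEVNORM 2 (unadjusted P = 0.169 by edgeR). Of all genes tested, 1.62% passed in that comparison. Trf (transferrin), at 629 to 1054 CPM the most abundant of the list, and Slc12a2, an ion cotransporter, at 430 to 991 CPM, overlapped between groups in all 3 comparisons. Of the genes next to the caseins on chromosome 5, 0 had enough counts to be tested, and the casein gene Csn1s2b had 1 to 19 counts per library, the most in sEVNORM 1.

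The remaining marker lists held few genes at an unadjusted P of 0.05, and of the calls given here only that of Krt15 for sEVNORM against sEVCTRL held with each of the 8 libraries left out. Of all genes tested, 2.45% passed for sEVHYP against sEVCTRL, 3.95% for sEVHYP against sEVNORM and 1.62% for sEVNORM against sEVCTRL. In the hormone-sensing luminal list Wnt4 was higher for sEVHYP against sEVNORM (log2 fold change 0.90) and Foxa1 for sEVNORM against sEVCTRL (0.68), in each case 1 of 10 genes. In the basal and myoepithelium list Cnn1 (0.58) and Oxtr (0.76), both of contractile cells, were higher for sEVHYP against sEVCTRL, and Cnn1 (0.62) against sEVNORM. Of brown adipocyte genes, 4 of which were tested, Dio2 (2.64) and Ucp1 were higher for sEVHYP against sEVCTRL and Cox7a1 (1.56) against sEVNORM. The skeletal muscle sum was 11.3 to 3165 CPM in sEVNORM and 4868 to 13433 CPM in sEVHYP. Its part in the Cox7a1 difference was not tested. Ucp1 had 4, 0 and 0 counts in sEVCTRL, 1, 46 and 7 in sEVNORM, and 7 and 115 in sEVHYP. Without sEVHYP 2 the unadjusted P against sEVCTRL was 0.137 for Dio2 and 0.316 for Ucp1. Krt15 of the skin list was higher in both vesicle groups than in sEVCTRL (2.28 and 2.63), and Krtdap in sEVNORM (4.01), where 1 library held 9.55 CPM of it. Of the endothelium, white adipocyte, skeletal muscle, lymph node, high endothelial venule and gland (sweat, salivary and sebaceous) lists, 0 genes passed in any comparison.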

How the data were processed

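RNA of 8 whole mammary glands was sequenced after poly(A) selection. Reads had been mapped by the authors to mm10 using STAR, RSEM 1.2.12 then assigned them to Ensembl release 89 genes, and the deposited values are whole-number counts per gene without normalization. How the estimates were rounded is not given in the sources used here. Groups came from the labels. The genes followed here and the marker lists (171 of 172 entries found) were chosen with earlier results of these data known. Positions and transcript lengths came from GENCODE M21.

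The tests used edgeR 4.0.16 under R 4.3.3: genes were kept by filterByExpr (count of at least 10), TMM factors ranged between 0.975 and 1.02, and the quasi-likelihood F-test was two-sided, fitted to all 3 groups at once, with Benjamini-Hochberg adjustment over 17858 genes, 5 residual degrees of freedom and a common biological coefficient of variation of 0.297. Log2 CPM used a prior count of 2. Besides the followed genes, up to 4 genes per list with the smallest P, 2 with the highest CPM and the 5 genes most alike in pattern could be named. Other genes were chosen after their values were seen. Genes without a symbol held 0.0389% of counts. Alternatives were DESeq2 1.42.0 (size factors or test), fits of 2 groups, other filters, marker levels as covariates, the replicate number as a block and each library left out. The fit was tested on simulated data. No 2 libraries of a group were duplicates.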

Additional observations from a re-analysis of the deposited data

How the results depend on the processing

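No adjusted call of these genes appeared under any setting. The median log2 fold changes moved by less than 0.74, the within-group SD between libraries of the genes' mean log2 CPM. That is a wide limit, larger than the size of the median for sEVHYP against sEVCTRL (-0.28). With a library left out that median ran from -0.63 to -0.0060, so it was not stable. Counts of genes at an unadjusted P of 0.05 did move. For sEVHYP against sEVCTRL it was 0 in the report, against 2.45% of all genes tested. The count was 1 with DESeq2 on all 8 libraries (2.73% of all genes), DESeq2 on 2 groups (2.06%) or edgeR on 2 groups (1.78%). It was also 1 without a filter (2.47%) and with the lymph node covariate (4.76%). It was 2 with the luminal (4.7%) or the muscle covariate (3.24%). With a sEVCTRL or sEVNORM library left out it was 0 to 1, against 1.95% to 8.26% of all genes tested. For sEVHYP against sEVNORM (3, against 3.95%) it was 1 with edgeR on 2 groups (5.98%) and 7 with the muscle covariate (4.48%). With a sEVCTRL or sEVNORM library left out it was 1 to 4, against 2.86% to 5.54% of all genes tested. For sEVNORM against sEVCTRL (0, against 1.62%) it was 2 with DESeq2 on all 8 libraries (1.72%) or on 2 groups (1.44%). It was also 2 with the lymph node covariate (2.75%), 4 without a filter (1.96%) and 5 with the muscle covariate (2.37%). With a sEVCTRL or sEVNORM library left out it was 0 to 4, against 1.27% to 5.72% of all genes tested. At least 10 counts in every library left 5 genes to test, Csn3, Elf5, Glycam1, Btn1a1 and Xdh. For sEVHYP against sEVNORM all 5 were lower, and 2, Glycam1 and Btn1a1, had an unadjusted P under 0.05 by edgeR (4.12% of all genes). In the main fit the estimates of these 5 ran from -1.06 to -0.25. For sEVHYP against sEVCTRL 4 were lower and 0 passed (2.32%), and for sEVNORM against sEVCTRL 4 were higher and 0 passed (1.46%).

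With the replicate number as a block the count for sEVHYP against sEVNORM was 0, against 4.31% of all genes tested. Deviations from the group mean correlated at -0.42 to 0.37 between libraries of equal number in different groups. Whether the numbers pair the libraries cannot be told from this, since libraries of unequal number were not compared.

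Directions turned for estimates that had not passed an unadjusted P of 0.05 by edgeR in the comparison concerned. Outside left-out libraries, these were Lalba (0.20 with the replicate block), Csn2 (-0.51) and Csn3 (-0.14) with the luminal covariate for sEVHYP against sEVCTRL, and Csn1s1 (-0.11), Elf5 (-0.30) and Btn1a1 (-0.43) with the luminal and Xdh with the lymph node (0.069) and muscle (0.20) covariate for sEVNORM against sEVCTRL. With a library left out, the log2 fold change for sEVHYP against sEVCTRL was -0.93 to 0.41 for Lalba, -0.56 to 0.33 for Elf5 and -0.63 to 0.0034 for Xdh. For sEVHYP against sEVNORM it was -0.82 to 0.022 for Csn3, positive without sEVNORM 1, and -0.60 to 0.032 for Xdh, positive without sEVHYP 1. For sEVNORM against sEVCTRL it was -0.11 to 0.99 for Elf5 and -0.38 to 0.45 for Btn1a1, both lowest without sEVNORM 1, and -0.24 to 0.28 for Xdh. The cause of these changes was not tested. Casein genes other than Csn3 had at most 124 counts in a library, which limits their precision.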
